A study of Mus musculus with 5480 samples.

Results

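Early alveolar fibroblasts are connective tissue cells of the wall of the young air sacs. Fibroblasts of this kind lie next to the epithelium, store lipid and retinoids, and supply growth factors and matrix while the wall is divided into smaller sacs. Raising newborn mice in oxygen-rich air (hyperoxia) is a common model of the arrested division of air sacs seen in preterm infants. Oxygen in excess gives reactive oxygen species that can damage DNA. A known response to DNA damage is the stabilization of the transcription factor p53, whose targets include the cell cycle inhibitor Cdkn1a (p21) and Mdm2, the ligase that returns p53 to low levels.

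The study sequenced single mesenchymal cells of the mouse distal lung at several ages in normal air, and at postnatal day 7 (P7) in hyperoxia as well. The cells described here carried the authors' subtype name of early alveolar fibroblast and came from the 4 mice at P7, 1 female and 1 male in normal air and 1 female and 1 male in hyperoxia. They numbered 811 of the 5480 cells of the series, with 218 and 147 cells from the female and the male in normal air, and 212 and 234 cells from the female and the male in hyperoxia. A further 8 such cells, from well columns 1 to 8 of the second plate of the male hyperoxia mouse, were left out, which took 819 cells to 811. Cells of this subtype name from mice at embryonic day 18.5 (E18.5) and postnatal day 1 (P1) also entered the test over all genes. These were 1 female and 1 male at each age, all in normal air. Strain, genotype, the oxygen fraction and the length of the exposure were not given in the sources used here. The labels kept dividing fibroblasts apart as a subtype of their own, with 17 and 6 cells in normal air and 23 and 36 in hyperoxia. They also set apart 55 cells of the male hyperoxia mouse as male hyperoxic fibroblasts, and none of these cells entered the values below.

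The reads of a mouse's cells were added up, and comparisons were made over mice. Levels are CPM, the depth-scaled counts of those sums after TMM normalization, which scales the libraries to each other. CPM is not corrected for gene length, so a gene is compared across mice and not with other genes. The sums held 226894183 and 138804517 reads in normal air and 135265136 and 199654147 in hyperoxia, always given here as the female and then the male. With 2 mice in each P7 group, p-values measure the spread between few animals, and the adjusted p is by Benjamini-Hochberg over all genes tested. The mesenchymal plates of each P7 mouse were sequenced in a different run, so run and hyperoxia cannot be told apart. The run of the male in normal air also held mesenchymal plates of males of other ages. The 1 run that held cells of both conditions, all from a CD31 sort, gave 7 of these cells in normal air and 1 in hyperoxia.

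Markers of the alveolar fibroblast class were present in all 4 mice. Mfap4, a microfibril protein, was at 17297 and 28918 CPM in normal air and at 23210 and 15317 CPM in hyperoxia, and Tcf21, a transcription factor of lung lipofibroblasts, was at 1226 and 377 CPM against 725 and 1196 CPM. The summed level of the 14 markers of this class was 28754 and 44665 CPM in normal air and 36293 and 28417 CPM in hyperoxia. Markers of other cells were low: 12 epithelial markers summed to between 40.9 and 97.0 CPM over the 4 mice, 10 endothelial markers to between 7.82 and 13.7 CPM, and 12 immune markers to between 32.5 and 57.3 CPM, and the 2 conditions overlapped in each of these 3 sums. Epcam, Cdh1, Pecam1 and Ptprc, which define epithelial, endothelial and immune cells, were each under 1 CPM in every mouse, as were all 5 mesothelial markers. Of 5 erythroid markers, 3 were under 1 CPM in every mouse. In both hyperoxia mice 1 epithelial marker was higher and 3 lower. For endothelial markers 4 were higher and 1 lower, and for immune markers also 4 and 1. Over all genes tested, 23.0% were higher and 20.3% lower in both hyperoxia mice. Of the epithelial, endothelial and immune markers, 6, 4 and 5 were under 1 CPM in every mouse. The 10 pericyte markers summed to 273 and 278 CPM in normal air and to 363 and 397 CPM in hyperoxia, with 3 members higher and 2 lower in both hyperoxia mice. The 10 myofibroblast markers summed to between 1967 and 2340 CPM and overlapped between conditions. So did the sums of the 7 vascular muscle markers, between 1403 and 1957 CPM. The 8 airway muscle markers, which share genes with the other contractile lists, summed to 1717 and 1735 CPM in normal air and to 2155 and 1753 CPM in hyperoxia. The part of other cells' RNA in the differences below was not tested. Dpt and Cd34, listed as adventitial markers, were present here too, at 1487 to 1770 CPM and 324 to 370 CPM. The 10 adventitial markers summed to 2594 and 2600 CPM in normal air and 2512 and 2353 CPM in hyperoxia, while Pi16, Ly6a and Dpp4 of that list were under 1 CPM in every mouse.

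More genes were detected per cell in hyperoxia. Cells were reduced at random to 100000 reads. Those with fewer were left out, 8 and 9 cells in normal air and 3 and 1 in hyperoxia. The median cell then held 2281.5 and 2029 genes in normal air and 3547 and 4225 in hyperoxia. The means of the mice were 2155 ± 179 (SD, n = 2) and 3886 ± 479 genes (SD, n = 2), a difference of 1731 genes, and the groups did not overlap. The plates of the mice in normal air differed among themselves: those of the female gave 3373 and 1688 genes and those of the male 1778 and 2090 genes. Plates in hyperoxia gave 3659 and 3434 genes in the female and 3962 and 4656 genes in the male. With the female in normal air represented by its first plate, the difference was 1185 genes. The run shared by both conditions held 7 of these cells in normal air. Those with at least 100000 reads had a median of 4277.5 genes, and the 1 hyperoxia cell there had 3140. Of all genes tested, 70.5% had a read in a larger share of thinned cells in both hyperoxia mice than in either normal mouse, and 2.34% in a smaller share. Shares of cells with a read given below stand beside that background.

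**Figure D1:**
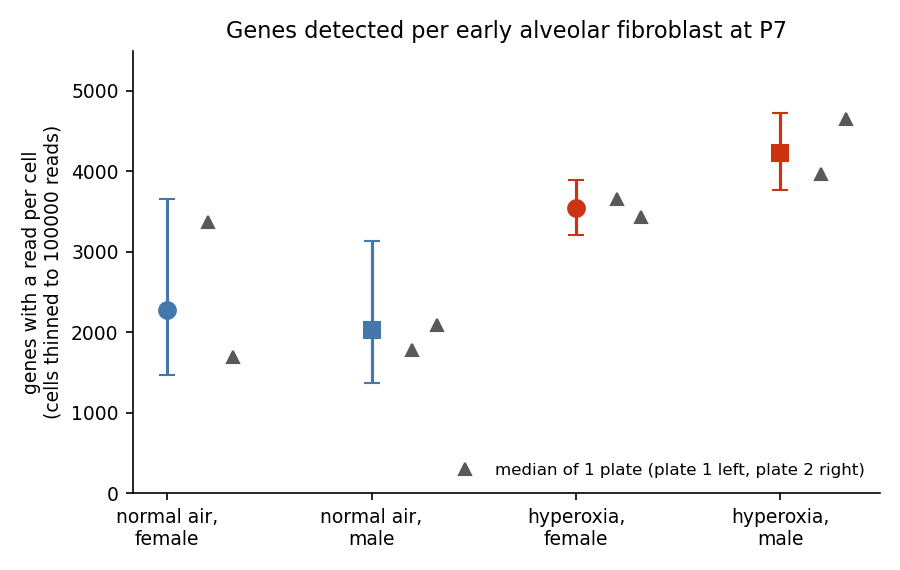
Genes with at least 1 read per early alveolar fibroblast at P7 after thinning to 100000 reads, as the median of each mouse with the quartiles of its cells (bars), and the medians of its 2 plates (triangles). The hyperoxia mice lie at 3547 and 4225 genes, the mice in normal air at 2281.5 and 2029 genes, and the first plate of the female in normal air lies at 3373 genes.

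The test over all genes made no call. Of 15416 genes, 0 passed an adjusted p of 0.05 in edgeR's quasi-likelihood test fitted to 8 mice (E18.5, P1 and both P7 groups), where 432 genes (2.80%) had an unadjusted p under 0.05, 354 of them higher (2.30%) and 78 lower (0.506%). DESeq2 on the same sums called 298 genes (1.93%), 262 higher (1.70%) and 36 lower (0.234%) in hyperoxia. Both hyperoxia mice were above both normal mice for 3546 genes (23.0%) and below both for 3126 genes (20.3%), and these percentages are the background against which the members of each gene list are counted. The median log2 fold change over all genes was 0.05 (hyperoxia minus normal air), and 0.06 with thinned cells. The count depended on the E18.5 mice, which gave 14 and 24 cells. In a fit of the 6 mice at P1 and P7, 4 genes passed, and 9 or 7 genes passed when the E18.5 female or the E18.5 male was left out. A fit of the 4 mice at P7 with group as its only term called 8 genes, and one with a term for sex called 1 gene.

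The p53 targets had the highest median fold change of the 24 gene lists. Of 24 targets tested, 20 were above both normal mice in both hyperoxia mice, against 23.0% of all genes, 0 were below both, and 4 overlapped. Some of the 20 separated at very low levels. Perp was at 0.749 and 0 CPM in normal air and 4.34 and 0.795 CPM in hyperoxia. Ddit4 was at 0.323 and 0.0822 CPM against 0.927 and 1.42 CPM. Pmaip1 was at 0.0258 and 0.0224 CPM against 1.24 and 1.95 CPM. The median log2 fold change of the 24 targets was 1.83, against 0.05 over all genes, and 1.89 with thinned cells. With the first plate alone for the female in normal air, whose genes per cell lay near those in hyperoxia, the median was 1.91. The part of the number of genes per cell in these medians was not tested. In edgeR 0 of the 24 passed and 5 had an unadjusted p under 0.05, all higher, as had 2.30% of all genes. DESeq2 called 5 of the 24, all higher, and 1.70% of all genes as higher. The list was chosen with earlier results of these cells known, so its direction is described here and not tested as a list.

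Cdkn1a, the inhibitor of cyclin-dependent kinases, was at 85.5 and 14.3 CPM in normal air and at 928 and 990 CPM in hyperoxia. The 2 groups did not overlap, and the log2 fold change was 4.04 (SE 2.29, adjusted p 1.0 in edgeR, higher in 2 of 2 hyperoxia mice). It lay between 2.79 and 7.32 over the 22 alternatives tried, in which the lowest adjusted p was 0.105. A read of Cdkn1a was found in 16 of 218 cells (7.34%, 95% exact interval 4.25 to 11.6) and 3 of 147 cells (2.04%, 0.423 to 5.85) in normal air. In hyperoxia it was found in 131 of 212 cells (61.8%, 54.9 to 68.4) and 178 of 234 cells (76.1%, 70.1 to 81.4), and these intervals cover counting error only. With cells thinned to 100000 reads the shares were 7.14% and 1.45% against 61.7% and 75.1%. The level in normal air came from few cells, with 62.2% of the female's reads and 77.7% of the male's from 1 cell, while in hyperoxia no cell gave more than 3.37%. Among cells with a read, the median was 119 and 1207 CPM in normal air and 1370 and 1193 CPM in hyperoxia, so these medians overlapped while the shares of cells with a read did not. Plate by plate, Cdkn1a was at 987 and 930 CPM in the female and 971 and 1109 CPM in the male in hyperoxia. In normal air the plates gave 37.9 and 161 CPM in the female and 6.7 and 24.6 CPM in the male. The first plate of the female held 3373 genes per cell. The part of the number of genes per cell in the Cdkn1a values was not tested.

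**Figure D2:**
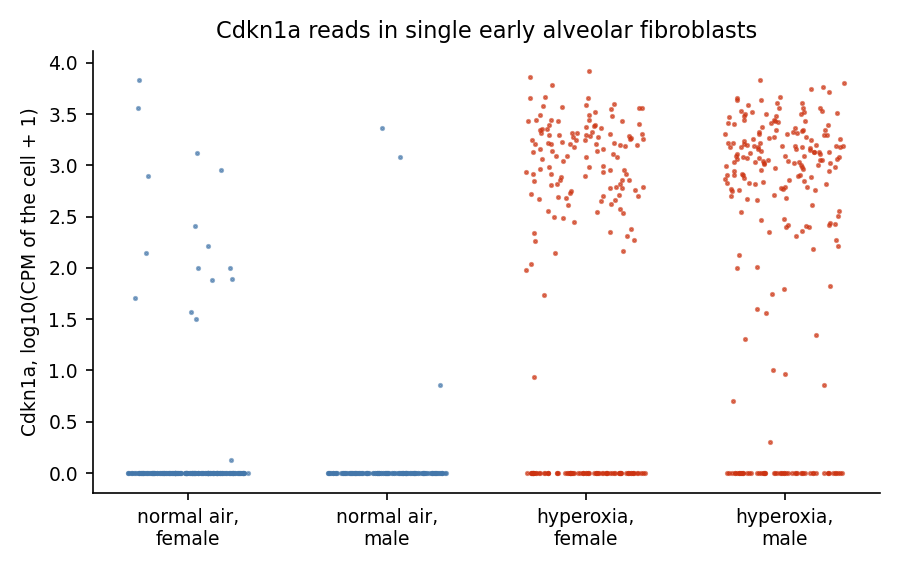
Cdkn1a in each early alveolar fibroblast, as log10 of the CPM of the cell plus 1, by mouse, with every cell drawn as a point. Most cells in normal air lie at 0, while 131 of 212 and 178 of 234 cells in hyperoxia hold reads.

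A p53 response element is a pair of similar decamers. It was searched by name in RefSeq promoter windows (GRCm38.p6, 250 bases before to 50 after a gene's start), with at most 1 letter of each decamer off the consensus and at most 1 base between them. The element reads alike on both strands. Of 24 p53 targets tested, 18 matched a window by symbol, and 2 held such an element, Cdkn1a and Ccng1. Over all genes tested that matched a window, 67 of 11441 (0.586%) held one. The windows of Cdkn1a and Ccng1 are shown because both targets were higher in both hyperoxia mice and hold the element near a start. Capitals mark the match. A match describes letters and is not a measured site. That of Cdkn1a lies in the upstream of 2 windows, chr17:29090729-29091028 on the plus strand, 51 to 32 bases before the start, and that of Ccng1 in chr11:40755237-40755536 on the minus strand, 195 to 176 bases before the start.
Cdkn1a: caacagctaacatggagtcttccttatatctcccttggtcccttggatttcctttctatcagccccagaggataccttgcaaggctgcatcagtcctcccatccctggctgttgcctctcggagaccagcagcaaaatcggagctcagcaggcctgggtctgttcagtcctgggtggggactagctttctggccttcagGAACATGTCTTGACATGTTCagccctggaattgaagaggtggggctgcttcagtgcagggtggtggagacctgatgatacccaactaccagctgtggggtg
Ccng1: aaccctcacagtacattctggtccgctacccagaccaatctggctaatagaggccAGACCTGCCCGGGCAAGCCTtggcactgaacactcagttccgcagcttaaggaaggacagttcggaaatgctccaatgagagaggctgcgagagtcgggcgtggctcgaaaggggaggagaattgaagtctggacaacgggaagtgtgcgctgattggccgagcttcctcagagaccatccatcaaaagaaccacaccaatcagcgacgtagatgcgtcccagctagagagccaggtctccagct

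Among the other targets of high CPM the fold changes were smaller. Phlda3, a p53-induced inhibitor of Akt signalling, was at 187 and 190 CPM in normal air and at 392 and 444 CPM in hyperoxia (log2 fold change 1.14, SE 0.42). Mdm2 was at 47.8 and 41.7 CPM against 91.0 and 125 CPM (1.24, SE 0.64). Ccng1, which codes for cyclin G1 and carries the element shown above, was at 29.8 and 50.0 CPM against 107 and 126 CPM (1.58, SE 0.82). In each of these genes both hyperoxia mice lay above both normal mice. The same held for Bax, a pore-forming promoter of cell death, at 94.0 and 88.4 CPM against 283 and 206 CPM. It held for Trp53inp1, an activator of p53, at 24.2 and 22.0 CPM against 83.1 and 82.6 CPM.

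Targets that were near absence in normal air differed by larger ratios. Sesn2, a stress-induced inhibitor of mTORC1, was at 1.43 and 4.91 CPM in normal air and 39.1 and 43.1 CPM in hyperoxia, with reads in 5 and 5 cells against 45 and 62 cells. Eda2r, a receptor of the TNF receptor family, was at 1.51 and 0.164 CPM against 19.4 and 29.5 CPM, with reads in 7 and 5 cells against 77 and 98. DESeq2 called Sesn2 (adjusted p 0.0017) and not Eda2r (adjusted p 0.095). Sesn2, Eda2r, Gdf15, Bax, Trp53inp1, Sesn1, Ercc5, Perp, Ddit4 and Pmaip1 were named after their values had been seen. Gdf15, a secreted stress cytokine, was at 0.0172 and 0 CPM against 2.46 and 7.02 CPM, but from 2 and 0 cells against 5 and 11 cells.

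Not every target shared this direction. Btg2, an antiproliferative gene and the target of highest CPM, was at 1757 and 524 CPM in normal air and at 1087 and 2002 CPM in hyperoxia. Plk2, a polo-like kinase, was at 397 and 425 CPM against 423 and 453 CPM, which overlapped as well. Sesn1, at 73.5 and 37.8 CPM against 50.9 and 39.4 CPM, and Ercc5, a nuclease of DNA repair, at 56.2 and 93.6 CPM against 44.4 and 61.0 CPM, also overlapped. The median thinned cell held a read of 4 and 4 of the 24 targets in normal air and of 9 and 11 in hyperoxia, beside the higher number of all genes per cell given above.

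**Figure D3:**
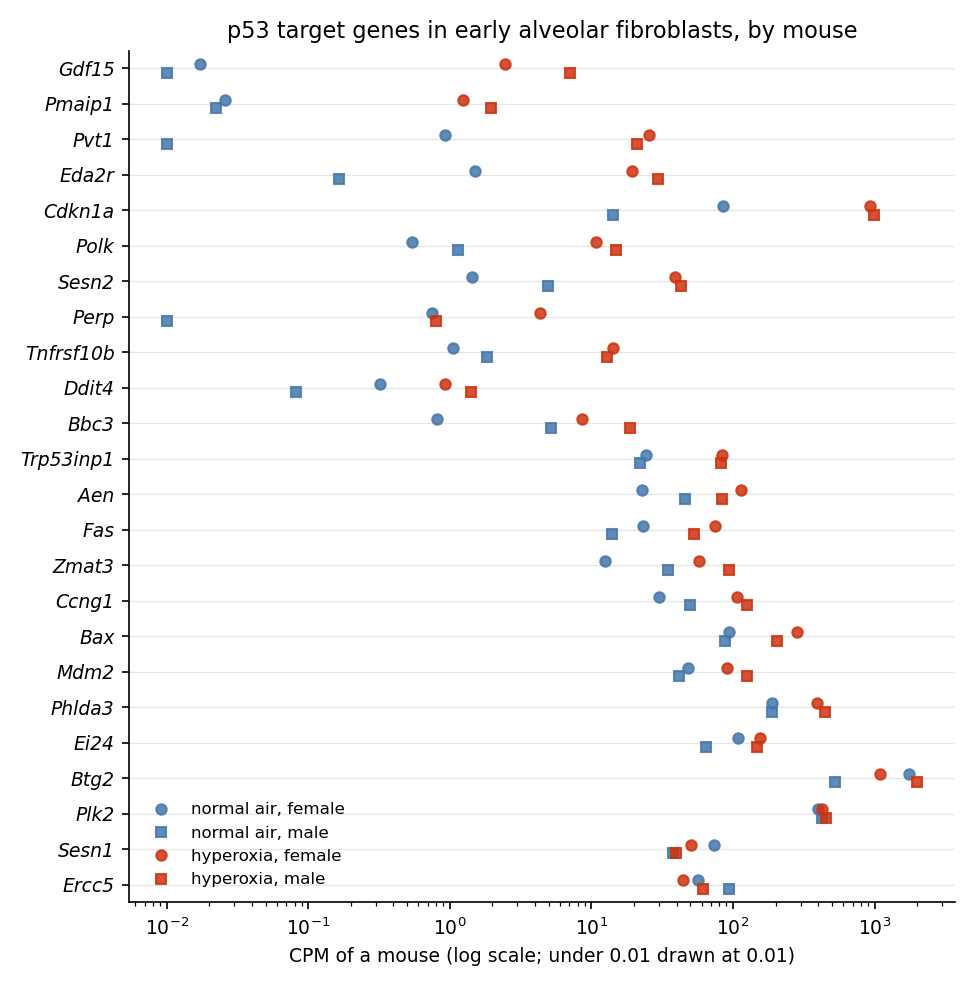
CPM of each tested p53 target in early alveolar fibroblasts, by mouse, on a log axis, ordered by log2 fold change, with blue for normal air, red for hyperoxia, circles for females and squares for males. For 20 of the 24 genes both red symbols lie to the right of both blue ones, and Btg2, Plk2, Sesn1 and Ercc5 overlap.

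Among genes of cell division the lower values were mostly in hyperoxia. Of 20 such genes, 10 lay below both normal mice in both hyperoxia mice (20.3% of all genes did), 0 lay above, and the median log2 fold change was -0.95, or -0.74 with thinned cells. Pcna, the sliding clamp of DNA replication, was at 98.8 and 87.2 CPM in normal air and 42.9 and 37.1 CPM in hyperoxia (log2 fold change -1.22, SE 0.60), and the helicase subunit Mcm4 was at 69.6 and 66.4 CPM against 34.1 and 53.1 CPM. Tyms, at 59.2 and 34.6 CPM against 61.7 and 52.8 CPM, and Mcm3, at 62.0 and 32.9 CPM against 41.0 and 48.9 CPM, overlapped between conditions. A read of Mki67 or Top2a, which mark dividing cells, was found in 15 of 210 and 9 of 138 thinned cells in normal air and in 3 of 209 and 14 of 233 in hyperoxia. The male in hyperoxia, at 6.01%, was near the 7.14% and 6.52% in normal air, and the female in hyperoxia was at 1.44%. Cells that the labels called proliferating fibroblasts were not among those counted.

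Of 11 cyclin D and G1 genes tested, 3 were higher and 3 lower without overlap, and the median log2 fold change was -0.15. Ccnd2 was at 617 and 802 CPM against 656 and 623 CPM, and Cdk4 at 470 and 516 CPM against 488 and 398 CPM, and the groups overlapped for both. Ccnd3 was at 196 and 122 CPM in normal air and 214 and 235 CPM in hyperoxia. The inhibitor Cdkn1c (p57) went the other way from Cdkn1a, at 351 and 270 CPM against 164 and 209 CPM (log2 fold change -0.77, SE 0.39).

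The genes of smallest p were of 2 kinds, those read in many cells and those read in few. By the naming rule these are the 10 genes of smallest p in each direction whose groups did not overlap. Each also had to reach a mean of 10 CPM in a group. None of them was a call in edgeR's fit of the 8 mice, while DESeq2 and other fits called some, as given below. Among the genes higher in hyperoxia and read in many cells, Igf1, a growth factor of fibroblasts, was at 227 and 154 CPM in normal air and 561 and 748 CPM in hyperoxia (log2 fold change 1.80, SE 0.38). Dpysl2, a regulator of microtubules, was at 432 and 569 CPM against 1412 and 1800 CPM (1.69, SE 0.30). Limch1, an actin-binding protein and a marker of the class, was at 4232 and 4296 CPM against 7346 and 7592 CPM (0.81, SE 0.19). Gnb1, a G protein beta subunit, was at 447 and 534 CPM against 1090 and 1391 CPM (1.33, SE 0.31), and the zinc finger gene Zscan26 was at 16.6 and 41.9 CPM against 140 and 252 CPM (2.81, SE 0.66). For these 5 genes no cell gave more than 14.7% of a mouse's reads. The log2 fold change kept its direction under the 22 alternatives, from 1.41 to 2.16 for Igf1, from 1.50 to 1.85 for Dpysl2 and from 0.70 to 0.90 for Limch1.

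The remaining 5 of the 10 higher genes were read in fewer cells. Saa3, an acute phase protein and the gene of smallest p, was at 0.0344 and 0.284 CPM in normal air and 126 and 140 CPM in hyperoxia, yet reads were found in 7 and 4 cells in normal air and in 4 and 12 cells in hyperoxia. In the female in hyperoxia 93.1% of the Saa3 reads came from 1 cell, and in the male 40.4%. Ddit4l, related to the mTORC1 inhibitor Redd1, had 3 reads in all in normal air and 6030 in hyperoxia, from 22 and 26 cells. Ahnak2, a large scaffold protein, had 3 reads against 5315, from 12 and 20 cells. Their read ratios were 1998 (exact conditional 95% interval 683 to 9690) and 1761 (602 to 8542). These intervals treat each read as independent, which it is not. They do not cover the spread over cells or mice. Gna14, a G protein alpha subunit, was at 0.0086 and 0.0224 CPM against 8.98 and 13.0 CPM, from 2 and 3 cells against 17 and 29 cells. Chodl, a membrane lectin, was at 2.89 and 2.45 CPM against 56.2 and 73.7 CPM, from 8 and 6 cells against 45 and 64 cells. Saa3, Gna14 and Chodl were also present at P1 in normal air, at 53.1 and 84.1 CPM, 18.9 and 24.4 CPM, and 43.0 and 46.6 CPM.

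Several of these genes passed in the fits that made calls. In edgeR's fit of the P1 and P7 mice the calls were Saa3 (adjusted p 0.016), Chodl, Gna14 and Serpina3g (adjusted p 0.023 each), all higher in 2 of 2 hyperoxia mice. With group alone, the fit of the 4 P7 mice called Chodl, Saa3, Serpina3g, Ddit4l, Ahnak2, Ak1 and Dnm3os as higher and Fabp3 as lower. Ak1, an adenylate kinase, was at 52.3 and 47.5 CPM against 277 and 308 CPM, from 51 and 23 cells against 143 and 181 cells (adjusted p 0.036 in that fit). Serpina3g, a serine protease inhibitor, was at 4.61 and 6.75 CPM against 75.8 and 73.2 CPM, from 12 and 3 cells against 50 and 56 cells. Ak1, Serpina3g and Dnm3os, at 28.9 and 31.4 CPM against 181 and 144 CPM, stand outside the naming rule and were chosen after their values had been seen.

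Among the genes lower in hyperoxia, Ltbp1, which anchors latent TGF-beta in the matrix, had the smallest p, at 232 and 296 CPM in normal air and 65.5 and 74.9 CPM in hyperoxia (log2 fold change -1.91, SE 0.40). DESeq2 called it (adjusted p 0.041), and its value lay between -2.22 and -1.63 over the alternatives. Enpep, an aminopeptidase that cleaves angiotensin, was at 917 and 951 CPM against 365 and 416 CPM (-1.26, SE 0.28). Npnt, a basement membrane ligand of integrin alpha 8 and a marker of the class, was at 1214 and 1391 CPM against 507 and 684 CPM (-1.14, SE 0.33). Tubb5, a tubulin, was at 2005 and 3132 CPM against 1135 and 1036 CPM, and Ubb, a polyubiquitin gene, was at 3333 and 4329 CPM against 1579 and 1248 CPM. Sec61b, of the protein channel into the endoplasmic reticulum, was at 333 and 425 CPM against 187 and 153 CPM, and Ppp1r15a (Gadd34), which restores translation after stress, was at 351 and 182 CPM against 79.0 and 103 CPM. A2m, a protease inhibitor, was at 25.4 and 63.4 CPM against 2.83 and 1.81 CPM, from 28 and 20 cells against 8 and 25 cells. Fabp3-ps1 was at 22.1 and 31.0 CPM against 2.01 and 1.98 CPM, but it is named as a pseudogene of Fabp3, a fatty acid binding protein at 40.2 and 65.8 CPM against 3.36 and 2.92 CPM, and how reads were shared between the copies is uncertain.

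**Figure D4:**
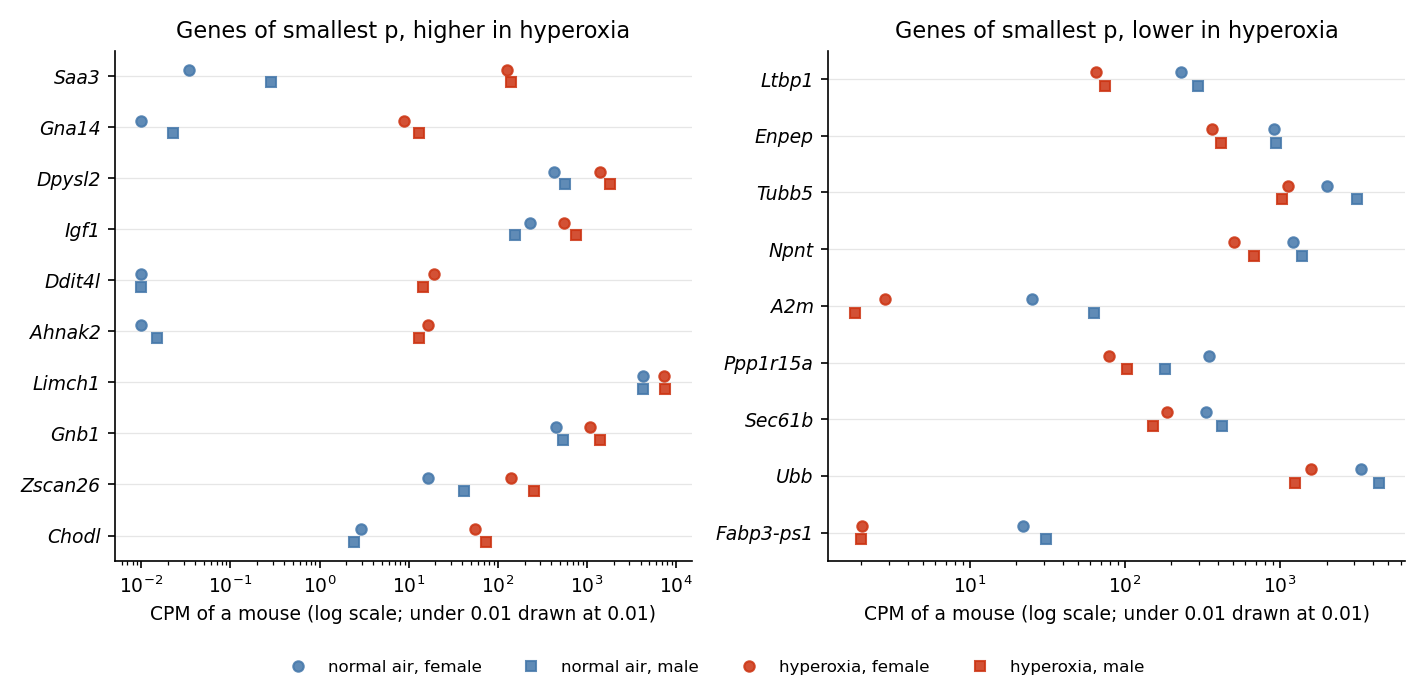
CPM by mouse, on a log axis, of the genes of smallest p that were higher (left, 10 genes) and lower (right, 9 genes) in hyperoxia, with blue for normal air, red for hyperoxia, circles for females and squares for males. Igf1, Dpysl2, Limch1 and Gnb1 are abundant in all mice, while Saa3, Gna14, Ddit4l and Ahnak2 lie under 1 CPM in normal air.

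In the lists that follow, the members named first are among the 4 of highest CPM. In the IGF axis 5 of 11 genes were higher and 1 lower without overlap, with a median log2 fold change of 0.51. That median was 0.28 with the first plate alone for the female in normal air. Beside Igf1, the binding proteins Igfbp4 (992 and 823 CPM against 1030 and 1221 CPM) and Igfbp7 (788 and 674 CPM against 850 and 900 CPM) differed by 0.34 and 0.24 on the log2 scale, each less than its SE, and the clearance receptor Igf2r overlapped, at 141 and 200 CPM against 176 and 191 CPM. In TGF-beta and BMP signalling 9 of 22 genes were higher and 3 lower, with a median of 0.22. The receptor Tgfbr2 was at 191 and 167 CPM against 238 and 265 CPM, and Id3, a target of BMP signals, was at 808 and 961 CPM against 585 and 491 CPM (log2 fold change -0.70, SE 0.28). The matricellular gene Cyr61 (Ccn1), at 3649 and 1284 CPM against 3637 and 3605 CPM, and the ligand Bmp4, at 279 and 375 CPM against 346 and 240 CPM, overlapped.

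For Wnt signalling 3 of 19 genes were higher and 2 lower (median 0.16). With the first plate alone for the female in normal air the median was 0.73. Wnt2, a ligand of lung mesenchyme, was at 514 and 561 CPM against 697 and 433 CPM, Dkk3 at 563 and 621 CPM against 530 and 538 CPM, the transcription factor Tcf7l2 at 261 and 462 CPM against 271 and 178 CPM, and the ligand Wnt5a at 120 and 116 CPM against 93.1 and 171 CPM. Only Dkk3 of these 4 did not overlap. FGF, PDGF and vascular growth factor genes were higher in 6 and lower in 7 of 23 (median -0.05). DESeq2 called 3 of the 23, all higher, and 1.70% of all genes as higher. The members of this list with the highest CPM were Vegfd, Fgfr3, Dusp6 and Fgfr1. Vegfd was at 766 and 983 CPM against 790 and 743 CPM, and Fgfr3 at 379 and 363 CPM against 426 and 434 CPM. Dusp6 was at 269 and 273 CPM against 268 and 261 CPM, and Fgfr1 at 137 and 210 CPM against 79.3 and 108 CPM. Vegfd, Fgfr3 and Dusp6 differed by 0.15, 0.22 and 0.04 on the log2 scale in size, each less than its SE. The difference of Fgfr1 was also less than its SE (-0.89, SE 0.91). Hedgehog and Notch genes were higher in 5 and lower in 1 of 14 (median 0.22), and the Hedgehog genes Hhip, Ptch1, Smo and Gli3 all overlapped, with log2 fold changes of -0.26, -0.13, -0.13 and 0.14.

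Matrix lists had medians near that of all genes. Of 20 collagens 3 were higher and 2 lower, with a median log2 fold change of -0.09. Col1a2 was at 3313 and 3309 CPM in normal air and 2283 and 3060 CPM in hyperoxia, and Col1a1 (2946 and 1945 CPM against 1976 and 3315 CPM), Col3a1 (2430 and 1908 CPM against 1839 and 2142 CPM) and Col6a1 (742 and 839 CPM against 619 and 810 CPM) overlapped. Of 20 elastic fibre genes 4 were higher and 6 lower (median -0.01). Eln, the elastin gene, was at 665 and 471 CPM against 600 and 1038 CPM, Fbln5, a fibulin needed for elastic fibres, at 2014 and 1220 CPM against 1679 and 1567 CPM, and Mfap2, a microfibril protein, at 1542 and 1489 CPM against 1172 and 834 CPM (-0.58, SE 0.42). Among 24 matricellular, proteoglycan and protease genes 10 were higher and 4 lower (median 0.21). Fibronectin (Fn1) was at 4045 and 4423 CPM against 2670 and 2907 CPM (-0.60, SE 0.28), the proteoglycan Bgn at 2183 and 1450 CPM against 2697 and 3261 CPM (0.72, SE 0.27), and the protease Mmp2 at 1887 and 1925 CPM against 2420 and 2440 CPM (0.35, SE 0.30), while Sparc, a collagen-binding protein, overlapped at 6692 and 6617 CPM against 7372 and 6126 CPM. Contractile genes were higher in 3 and lower in 1 of 14 (median 0.21): Acta2, Tpm1 and Myl9 overlapped, with log2 fold changes of 0.21, 0.06 and -0.40, and the kinase Mylk was at 801 and 951 CPM against 561 and 654 CPM (-0.53, SE 0.26).

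Genes of alveolar fibroblast identity did not share a direction. Of 14, 2 were higher and 6 lower (median -0.14). Limch1 was higher and Npnt lower, as given above, Macf1, a linker of actin and microtubules, was at 2727 and 7024 CPM in normal air and 2261 and 1855 CPM in hyperoxia (-1.22, SE 0.47), and Mfap4 overlapped. Lipid handling genes were higher in 6 and lower in 4 of 19 (median 0.12): Plin2, the coat protein of lipid droplets, was at 414 and 540 CPM against 483 and 383 CPM, the lipase inhibitor G0s2 at 721 and 881 CPM against 448 and 550 CPM (-0.68, SE 0.25), Apoe at 418 and 335 CPM against 606 and 627 CPM (0.73, SE 0.26), and Vldlr at 333 and 304 CPM against 303 and 311 CPM. Retinoid genes were higher in 2 and lower in 5 of 14, with a median of -0.16 that became -0.53 with thinned cells and 0.21 with the first plate alone for the female in normal air. Adh1, a retinol dehydrogenase, was at 9444 and 14433 CPM against 11024 and 6027 CPM, Rarres2 was at 510 and 736 CPM against 470 and 344 CPM, and Dhrs3, a retinal reductase, at 83.0 and 93.7 CPM against 150 and 201 CPM.

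Chemokine, cytokine and adhesion genes had the second highest median, 0.99, and 0.83 with thinned cells. Of 22 such genes 12 were higher without overlap (23.0% of all genes were) and 0 lower. Of those with the highest CPM, Vcam1 (519 and 364 CPM against 491 and 679 CPM), Nfkbia (276 and 158 CPM against 173 and 352 CPM) and Kitl (118 and 197 CPM against 126 and 95.0 CPM) overlapped. In the male in hyperoxia 56.4% of the Nfkbia reads came from 1 cell. Cxcl12, a chemokine that retains CXCR4-bearing cells, was at 45.4 and 22.1 CPM in normal air and 123 and 174 CPM in hyperoxia (2.40, SE 2.03), with reads in 26 and 14 cells against 92 and 132 cells. Icam1, an adhesion molecule for leukocytes, was at 14.8 and 1.27 CPM against 54.7 and 70.4 CPM, and Tslp, an epithelial-type cytokine, at 6.29 and 9.54 CPM against 36.8 and 37.1 CPM (DESeq2 adjusted p 0.019). Icam1 and Tslp were named after their values had been seen. Saa3 is also a member of this list. DESeq2 called 3 of the 22 members, all higher, and 1.70% of all genes as higher.

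Complement genes were higher in 7 and lower in 2 of 12 (median 0.84). The inhibitor Serping1 was at 1667 and 2014 CPM against 1947 and 1641 CPM, and Cd59a was at 208 and 256 CPM against 193 and 134 CPM. C7, a pore component, went the other way from the median, at 89.7 and 222 CPM against 32.1 and 17.6 CPM (-3.03, SE 1.97). Interferon and MHC class I genes were higher in 10 and lower in 4 of 20 (median 0.90). Ifitm3, an antiviral membrane protein, was at 354 and 454 CPM against 639 and 815 CPM (0.85, SE 0.32), B2m overlapped at 435 and 630 CPM against 566 and 599 CPM, and Ifi27 (264 and 403 CPM against 174 and 135 CPM) and Ifi35 (60.6 and 81.7 CPM against 53.3 and 41.7 CPM) were lower in both hyperoxia mice, with log2 fold changes of -1.01 (SE 0.83) and -0.71 (SE 2.06).

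**Figure D5:**
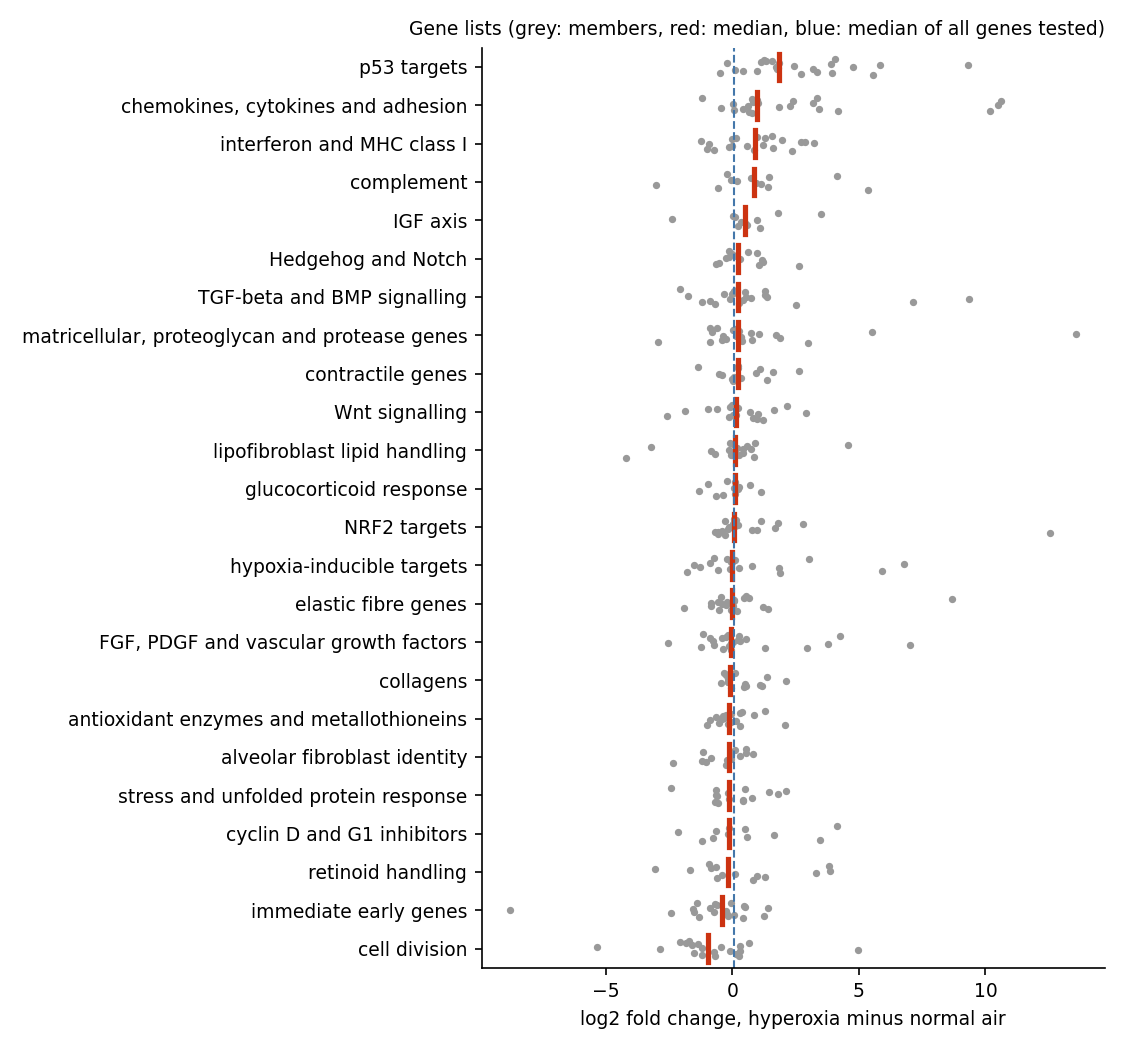
Log2 fold change (hyperoxia minus normal air) of the tested members of each gene list (grey points), with the median of the list (red bar) and of all 15416 genes (dashed blue line, 0.05). The p53 targets have the highest median, 1.83, and the cell division genes the lowest, -0.95.

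Lists of the oxidative stress response had medians near that of all genes. Of 22 NRF2 targets 6 were higher and 4 lower (median 0.07), and of 18 antioxidant enzymes and metallothioneins 3 were higher and 5 lower (median -0.13). The median hides single NRF2 targets with large rises, named after their values had been seen. Slc7a11, Srxn1, Me1 and Gclm had log2 fold changes of 2.81, 1.81, 1.69 and 1.13. Osgin1 had 1 read in normal air and 2946 in hyperoxia. DESeq2 called 1 of the 22 as higher, and 1.70% of all genes. The ferritin chains Fth1 (2006 and 2495 CPM against 1606 and 1410 CPM) and Ftl1 (1422 and 1937 CPM against 1123 and 909 CPM) and thioredoxin, Txn1 (215 and 292 CPM against 206 and 168 CPM), were lower in both hyperoxia mice, and the glutathione transferase Gstm1 was higher, at 156 and 186 CPM against 341 and 223 CPM. The peroxiredoxins Prdx1, Prdx2 and Prdx5 had log2 fold changes of -0.39, -0.90 and -0.52. Gpx3, a secreted peroxidase, was at 726 and 619 CPM against 1330 and 1118 CPM (0.87, SE 0.40), and Sod1, the cytosolic superoxide dismutase, named after its values had been seen, was at 175 and 267 CPM against 457 and 600 CPM (1.29, SE 0.42).

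Genes of the unfolded protein response were higher in 2 and lower in 4 of 15 (median -0.15). The chaperones Hspa5 (1437 and 1824 CPM against 1204 and 854 CPM) and Hsp90b1 (730 and 967 CPM against 635 and 468 CPM) were lower in both hyperoxia mice, while the transcription factors Xbp1 and Atf4 overlapped, with log2 fold changes of -0.15 and 0.50. Targets of the hypoxia-inducible factors were higher in 3 and lower in 6 of 18 (median -0.00, and 0.17 with thinned cells): Ldha, Aldoa and the vasodilator peptide gene Adm overlapped (0.10, 0.04 and 0.78), and Higd1a was at 154 and 167 CPM against 124 and 90.1 CPM. Immediate early genes were higher in 2 and lower in 5 of 20 (median -0.42). Fos was at 3704 and 1498 CPM against 2210 and 3118 CPM, the phosphatase Dusp1 at 2215 and 867 CPM against 602 and 756 CPM (-1.32, SE 0.82), and Egr1 at 1305 and 778 CPM against 436 and 716 CPM (-0.88, SE 0.39). Glucocorticoid response genes were higher in 0 and lower in 4 of 12 (median 0.09), with Dusp1 among them, Hsd11b1, which reactivates cortisone, at 396 and 662 CPM against 359 and 283 CPM, the receptor Nr3c1 at 259 and 285 CPM against 216 and 205 CPM, and Cebpd, at 241 and 85.5 CPM against 151 and 231 CPM, overlapping.

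The effect of hyperoxia was then compared with that in 2 other classes of the same 4 mice, early adventitial fibroblasts (314 cells), which surround airways and vessels, and myofibroblasts (433 cells), the contractile cells at the tips of growing septa. The difference of the effects was the class by treatment term of a model that gave each mouse a term of its own. Against adventitial fibroblasts 0 of 15475 genes passed in edgeR, with 1020 (6.59%) at an unadjusted p under 0.05, and DESeq2 called 519 (3.35%). Against myofibroblasts 0 of 15326 genes passed, with 904 (5.90%) at an unadjusted p under 0.05, and DESeq2 called 439 (2.86%). Leaving out the female in normal air gave 308 and 64 calls in these 2 edgeR tests. Fitted alone on the 4 P7 mice with sex and group, adventitial fibroblasts gave 2 calls of 13910 genes (0.0144%) in edgeR. Myofibroblasts gave 117 of 13404 (0.873%), Cdkn1a, Phlda3 and Ccng1 among them (adjusted p 0.00025, 0.0025 and 0.0016). The same fit of early alveolar fibroblasts called 1 of 14465 genes, Saa3.

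Cdkn1a was higher in both hyperoxia mice in all 3 classes. In adventitial fibroblasts it was at 95.1 and 351 CPM in normal air and 754 and 1005 CPM in hyperoxia, and the log2 fold change of alveolar fibroblasts exceeded theirs by 2.48 (SE 1.59, adjusted p 0.816). In myofibroblasts it was at 82.8 and 60.9 CPM against 2728 and 2869 CPM, and the difference was -0.55 (SE 0.64, adjusted p 0.952). Phlda3, at 77.5 and 87.6 CPM against 450 and 625 CPM in myofibroblasts, differed by -1.56 (SE 0.22, adjusted p 0.307 in edgeR, called by DESeq2 with an adjusted p of 3.0e-07). Ccng1, at 10.9 and 22.7 CPM against 153 and 206 CPM there, differed by -1.93 (SE 0.30, adjusted p 0.372 in edgeR, 3.8e-06 in DESeq2). Igf1 was at 518 and 412 CPM against 548 and 414 CPM in adventitial fibroblasts, and the alveolar effect was larger by 1.70 (SE 0.32, adjusted p 0.648 in edgeR, 0.00078 in DESeq2). Over the p53 targets the median log2 fold change was 1.83 here, in the fit of 8 mice with E18.5 and P1. It was 1.59 in the 24 targets tested in adventitial fibroblasts and 2.47 in the 23 tested in myofibroblasts. Those 2 medians come from fits of the 4 P7 mice alone, so the fits differ, and all share the P7 mice.

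Nnat, an imprinted gene for a small membrane protein, had the smallest p against adventitial fibroblasts and was among the 5 smallest against myofibroblasts. In early alveolar fibroblasts it was at 165 and 113 CPM in normal air and 482 and 479 CPM in hyperoxia. In adventitial fibroblasts it was at 152 and 109 CPM against 26.8 and 27.3 CPM, and in myofibroblasts at 295 and 400 CPM against 76.5 and 77.6 CPM. Hyperoxia was higher here and lower in both other classes. The differences were 4.02 (SE 0.23) and 3.95 (SE 0.36), each with an adjusted p of 0.085 in edgeR. DESeq2 gave adjusted p of 1.2e-36 and 2.2e-20, and edgeR with thinned cells 0.065 and 0.0085. Ltbp2, a microfibril-associated protein, was also higher here and lower in myofibroblasts. It was at 93.4 and 72.1 CPM against 238 and 196 CPM here and at 1211 and 991 CPM against 498 and 536 CPM there. The difference was 2.48 (SE 0.22), with an adjusted p of 0.085 in edgeR, 0.014 there with thinned cells, and 3.4e-15 in DESeq2.

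Most other genes of smallest p were at a low level in 1 class in normal air and higher there in hyperoxia. Ahnak2 and the heparan sulfate editing enzyme Sulf2 were genes of adventitial fibroblasts in normal air, at 106 and 112 CPM and at 254 and 126 CPM, and in alveolar fibroblasts they were at 0.00441 and 0.0151 CPM and at 2.94 and 0.904 CPM in normal air, against 16.6 and 12.7 CPM and 27.9 and 58.2 CPM in hyperoxia. Mrgprf, an orphan receptor at 83.9 and 38.3 CPM in adventitial fibroblasts, was at 1.07 and 1.62 CPM in alveolar fibroblasts in hyperoxia. In the opposite sense, the carboxylesterase Ces1d was at 370 and 455 CPM in alveolar fibroblasts and at 0 and 0.0185 CPM in adventitial ones in normal air, against 15.5 and 31.9 CPM in the latter in hyperoxia. In myofibroblasts Ablim3 (0.0247 and 0.0399 CPM against 3.20 and 4.99 CPM), Bmp3 (0.0309 and 0.0299 CPM against 8.84 and 5.92 CPM) and Plxdc2 (14.0 and 24.2 CPM against 91.0 and 132 CPM) were likewise higher in hyperoxia, and all 3 were at 91.9 CPM or more in alveolar fibroblasts in every mouse. The part of the higher number of genes per cell in these values was not tested.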

How the data were processed

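The authors deposited a table of read counts per gene and cell, 18072 genes, from plate-based Tn5 libraries of sorted single cells of the distal lung, per the labels' protocols. The submitters' processing notes list STAR 2.5.2b, HTSeq 0.10 and the build GRCh38, although the organism is mouse. The labels name no molecular identifiers, and reads are not independent molecules, although the intervals of read ratios treat them so. Exact intervals of shares of cells cover counting error only. Reads of near-identical genes (Tubb5, Ubb, Acta2, Fabp3) may be split or lost. No doublet caller was run, and 0 columns of the table lacked a sample.

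Counts were summed per mouse and class in Python 3.11.15 (NumPy 2.4.6, pandas 2.3.3, SciPy 1.17.1, matplotlib 3.10.9) and tested in R 4.3.3 with edgeR 4.0.16 (TMM, filterByExpr, quasi-likelihood, Benjamini-Hochberg, terms for sex and group, 3 residual degrees of freedom), at an adjusted p of 0.05. The interactions had 2 residual degrees of freedom. DESeq2 1.42.0, limma 3.58.1, other filters and scalings, thinning (seed 20240), and leaving out mice were alternatives, and the scripts were tested on simulated data. SE is the log2 fold change divided by the root of F.

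Named genes were the 10 of smallest p in each direction with no overlap and a mean of at least 10 CPM, the 4 members of highest CPM in each list, and the 5 of smallest p in each interaction. A few genes that meet this rule are not reported here. Other names were chosen after their values were seen. The members and all gene lists were chosen with earlier results of these data known.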

Additional observations from a re-analysis of the deposited data

How the results depend on the processing

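The number of genes called in early alveolar fibroblasts, 0 in edgeR, was 298 with DESeq2, 1 in the 4 P7 mice with sex and group, 8 in those mice with group alone and 4 in the P1 and P7 mice. It ranged from 0 to 9 when 1 mouse was left out, with 9 without the E18.5 female and 7 without the E18.5 male, and was 0 under the other alternatives for it, thinned cells and equal cell numbers included. Calls against adventitial fibroblasts, 0 in edgeR, were 519 with DESeq2 and ranged from 0 to 308 when 1 mouse was left out. They were 308 without the female in normal air, 10 without the male in normal air, 3 without the female in hyperoxia and 0 without the male in hyperoxia. Calls against myofibroblasts, also 0, were 439 with DESeq2, 1 with no filter on low counts, 9 with thinned cells, 2 with well columns 1 to 8 kept, and 0 to 64 with 1 mouse left out (64 without the female and 23 without the male in normal air). The cause of these differences was not tested. The difference in genes per cell, 1731, was 1185 with the first plate alone for the female in normal air, an alternative chosen after seeing the data. No paired analysis was possible because the mice of the 2 P7 groups are different animals and share no replicate number. The biological coefficient of variation was 0.987 in the fit of 8 mice, which holds the E18.5 mice. It is therefore not the spread of the P7 mice alone. With 2 mice a group, a change could be called in that fit only if large and even between mice. Most large changes were missed all the same in simulated counts of 8 mice with 200 genes changed. There edgeR called 0 of the 200 at a 4-fold change and 7 at a 16-fold change. At the 4-fold change it called 1 gene that had not been changed. The simulated counts took their spread from the fit of 8 mice and 1 mean level per gene for all mice. They describe that fit and not the fits of fewer mice. Genes with few reads were not measurable at this depth in normal air.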

Other observations

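Genes high in another fibroblast class and low in early alveolar fibroblasts of the normal mice at P7 were followed across mice. The 25 genes at 100 CPM or more in early adventitial fibroblasts of both normal mice and under 10 CPM in early alveolar fibroblasts of both had medians of 2.19 and 0.0822 CPM in normal air at P7 and of 4.80 and 9.22 CPM in hyperoxia. At P1 in normal air, in mice that the choice of these genes did not use, the medians were 4.12 and 4.74 CPM. The 31 genes chosen in the same way from myofibroblasts had medians of 1.88 and 0.187 CPM in normal air, 3.29 and 4.76 CPM in hyperoxia and 3.73 and 2.19 CPM at P1. Both sets were chosen for a low level in the normal mice at P7, so that low level was set by the choice. Their direction against those mice is partly set by it as well. Listed markers of other classes, such as Dpt and Cd34, were not low here, as given above. Lum, a proteoglycan of adventitial fibroblasts, had 0 reads in early alveolar fibroblasts in normal air and 3591 reads in hyperoxia, from 4 and 2 cells.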
